A study of Mus musculus with 12 samples.

Results

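The genes described here are 33 genes of cellular cholesterol handling, chosen by symbol from the 54532 genes listed in the count files. They are 7 enzymes of the mevalonate pathway and 11 enzymes of squalene and sterol formation. A further 6 are the genes of the SREBP transcription factors, their regulators and the cholesterol carrier Stard4. The others are 7 genes of the liver X receptors (LXR) and their targets, and 2 enzymes that esterify or hydroxylate cholesterol. Their RNA was measured by RNA-seq in monocytes sorted from mouse bone marrow as CD11b+Ly6Chi cells: CD11b is an integrin of myeloid cells, and Ly6C, when high, marks classical monocytes. The mice had been given 300 mM succinate, an intermediate of the tricarboxylic acid cycle, for 7 days, or none, and the sorted cells were then cultured with or without lipopolysaccharide (LPS), the bacterial agonist of Toll-like receptor 4. The sample titles give 4 h for the LPS culture. Control and succinate mice, each with unstimulated and LPS-treated cells, gave 4 groups of 3 libraries. The labels name no strain, sex, age or route of administration, and no transgene or deletion. Nor do they state that replicate libraries are from different animals. The p-values therefore reflect the spread among these libraries alone, which may be technical. All 12 libraries are from cells that were sorted and cultured, so none shows the state in the marrow.

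As background, cells make cholesterol from acetyl-CoA through mevalonate, isopentenyl units, squalene and a series of sterol intermediates. When membrane cholesterol is low, Scap carries the SREBP transcription factors from the endoplasmic reticulum to the Golgi, where they are cut and released to switch on the synthesis enzymes and uptake of low-density lipoprotein, and the Insig proteins hold this transport back when sterols are plentiful. When oxysterols accumulate, the LXR nuclear receptors raise the transporters Abca1 and Abcg1 and the apolipoprotein ApoE, which carry cholesterol out of macrophages, while Soat1 stores the surplus as cholesteryl esters. Monocytes and macrophages are known for adjusting both arms when they meet bacterial products.

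Depth was similar in all libraries, from 15975882 to 18306747 counts. Ly6C-high monocyte transcripts were abundant in each library, with a summed level of 12 markers between 6040 and 10900 CPM (counts scaled to a common library size, TMM-adjusted). Transcripts of 12 neutrophil markers, which include granule protein genes, S100a8 and S100a9, were also abundant. Their summed level was 9210 to 15900 CPM without LPS and 16100 to 21500 CPM with LPS. Ly6g, a marker of mature neutrophils and among these 12, averaged 3.87 to 7.73 CPM in the 4 groups. Macrophage markers summed to 192 to 290 CPM without LPS and 833 to 1100 CPM with LPS, a range set mostly by Vcam1 and Spic. Others of the 12 macrophage markers, C1qa, C1qb, C1qc, Mertk and Timd4, stayed at mean levels below 1 CPM in every group. Over the 7 tested, log2 fold changes with LPS ran from -2.24 to 8.03 in control and from -1.73 to 6.70 in succinate mice. Of these 7, 3 were called higher and 1 lower with LPS in each kind of mouse (57.1%). Of the 12 Ly6C-high markers 3 were called higher and 5 lower in each (66.7%). Of the 12 neutrophil markers 5 were called higher and 2 lower in each (58.3%). Over all genes tested 30.1% were called in control and 30.2% in succinate mice. Adgre1 averaged 112 CPM without and 139 CPM with LPS in control mice and 92.1 and 128 CPM in succinate mice. The marker sums move with LPS alongside the sterol genes below, and their part in those results was not tested. In bulk RNA, fewer cells of a type and less RNA per cell cannot be told apart. The libraries also fell into 2 sets by the mean log2 CPM of S100a4, Rpl24, Rpl10-ps3, Gm14303 and Rpl35a-ps2, which was 3.19 to 4.03 in 5 libraries (libraries 2 and 3 of each group without LPS and control library 3 with LPS) and 0.817 to 1.46 in the other 7. The labels name no batch, and the set moves with LPS, so counts with the set as a covariate and within the lower set stand beside the LPS results.

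The start regions of 5 members are shown: Apoe and Soat1, which fell with LPS in both kinds of mice, Idi1 and Hsd17b7, which rose in both, and Hmgcs1, the 1 member whose window held the SREBP element searched for. RefSeq windows (build GRCm38.p6) were found for 28 of the 33 members, with none for Fdps, Fdft1, Sqle, Stard4 and Abcg1, and the 250 bases before the outermost start were searched on both strands. Capitals mark CCAAT, the box bound by NF-Y, on either strand, which reads ATTGG on the opposite one, and in Hmgcs1 also TCACNCCAC, a form of the sterol regulatory element bound by SREBP. The windows are chr13:119690101-119690350 on the plus strand for Hmgcs1, chr13:8885356-8885605 on the plus strand for Idi1, chr1:169969206-169969455 on the minus strand for Hsd17b7, chr7:19699189-19699438 on the minus strand for Apoe and chr1:156474329-156474578 on the minus strand for Soat1. Each is written 5′ to 3′ toward its gene.
Hmgcs1: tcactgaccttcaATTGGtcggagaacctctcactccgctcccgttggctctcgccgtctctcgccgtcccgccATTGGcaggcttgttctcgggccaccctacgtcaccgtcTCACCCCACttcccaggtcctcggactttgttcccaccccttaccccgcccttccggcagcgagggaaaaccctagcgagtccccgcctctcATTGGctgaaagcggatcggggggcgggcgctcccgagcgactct
Idi1: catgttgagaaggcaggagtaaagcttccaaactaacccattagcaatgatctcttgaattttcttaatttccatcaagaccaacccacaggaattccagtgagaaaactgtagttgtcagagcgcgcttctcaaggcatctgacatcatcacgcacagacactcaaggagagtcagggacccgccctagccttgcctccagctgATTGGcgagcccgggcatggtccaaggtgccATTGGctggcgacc
Hsd17b7: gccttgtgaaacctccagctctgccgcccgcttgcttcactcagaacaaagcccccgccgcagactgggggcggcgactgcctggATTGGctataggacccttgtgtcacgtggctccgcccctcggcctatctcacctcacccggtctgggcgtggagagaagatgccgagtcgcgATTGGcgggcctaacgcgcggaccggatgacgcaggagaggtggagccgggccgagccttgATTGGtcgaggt
Apoe: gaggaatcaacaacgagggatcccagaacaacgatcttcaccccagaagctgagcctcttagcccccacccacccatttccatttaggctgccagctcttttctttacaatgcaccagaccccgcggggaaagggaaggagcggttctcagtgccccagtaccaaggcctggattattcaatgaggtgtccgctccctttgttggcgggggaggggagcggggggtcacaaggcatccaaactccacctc
Soat1: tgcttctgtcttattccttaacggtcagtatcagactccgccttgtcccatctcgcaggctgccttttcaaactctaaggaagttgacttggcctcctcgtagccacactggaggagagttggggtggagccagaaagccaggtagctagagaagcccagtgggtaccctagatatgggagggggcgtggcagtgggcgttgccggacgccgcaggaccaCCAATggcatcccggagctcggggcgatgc
The Hmgcs1 and Hsd17b7 windows each held 3 CCAAT boxes, Idi1 held 2, Soat1 held 1 and Apoe held none. CCAAT was present in 20 of the 28 members' windows (71.4%) and in 34.5% of 27025 windows of the same length over all genes. Of the synthesis enzymes with a window 13 of 15 held it, and of the other members 7 of 13. GGGCGG, the core of the GC box bound by Sp1, was present in 19 of 28 members (67.9%) and in 33% of all windows. TCACNCCAC was present in 1 of 28 members, Hmgcs1, and in 1.03% of all windows. The LXR element DR4, searched as 2 copies of AGGTCA with 4 bases between them, was in 0 of 28 members and in 0.0111% of all windows. The windows over all genes were not limited to genes expressed in these cells, whereas every member passed the low-count filter. The shares therefore do not compare the members with expressed genes alone. The motifs were counted separately, so overlapping matches count for each. Matches describe letters in these windows, and binding was not measured.

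Without a stimulus the 33 genes covered a wide range of levels in control monocytes. Per kilobase of exon (GENCODE M21), the highest was Apoe at 691 CPM per kb, followed by Soat1 at 83.3, the SREBP2 gene Srebf2 at 45.3, the LXR-beta gene Nr1h2 at 44.6, Insig1 at 37.8 and the HMG-CoA synthase gene Hmgcs1 at 23.5. Srebf2 and Nr1h2 differed by less than their spread. The lowest were the sterol reductase gene Tm7sf2 at 0.593, Fdps at 0.526 and Ch25h at 0.115 CPM per kb. Some values are uncertain, since exons overlap other gene models and whether reads were counted by strand is not given. Of the exonic bases of Fdps 26.7% overlap another gene model on its own strand, and of those of Tm7sf2 12.1%. On the opposite strand, 18.3% of those of Fdft1, the squalene synthase gene, overlap Ctsb. Such overlaps on the opposite strand cover 13.2% of those of Scap and 12.1% of those of Hmgcs1. All 33 members passed the low-count filter and were tested with edgeR among 14324 genes, where a call means a p below 0.05 after Benjamini-Hochberg adjustment over all of them.

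After LPS, cells of control mice had less RNA of several sterol export and storage genes and more of a few synthesis genes. Apoe, Abcg1, Soat1, the LXR-alpha gene Nr1h3 and the SREBP escort gene Scap fell, while the synthesis genes Pmvk, Idi1 and Hsd17b7 and the oxysterol-forming enzyme gene Ch25h rose. That makes 9 of 33 members called (27.3%), close to the 30.1% of all genes tested, with 4 higher beside 15.3% of all genes and 5 lower beside 14.8%. The members as a whole were therefore called about as often as other genes. Unadjusted p was below 0.05 for 13 members, beside 39.2% of all genes. The libraries with and without LPS did not overlap for 15 members, beside 45.5% of all genes, with 9 higher (22.3%) and 6 lower (23.2%). Their median log2 fold change was 0.09, against -0.004 over all genes.

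In succinate mice the same comparison called 10 of 33 members (30.3%), beside 30.2% of all genes. Idi1 and Hsd17b7 rose, beside 14.1% of all genes called higher. Insig1, Srebf1, Scap, Nr1h3, Abca1, Abcg1, Apoe and Soat1 fell, beside 16.2% of all genes called lower. Unadjusted p was below 0.05 for 15 members, beside 40% of all genes. Libraries did not overlap for 13 members, beside 41.4% of all genes, with 3 higher (19.9%) and 10 lower (21.5%). The median over the 33 genes was 0.03, against -0.017 over all genes. With the library set as a covariate 5 members were higher and 5 lower in control mice, and 1 was higher and 5 lower in succinate mice. Within the 7 libraries of the lower set, which hold 1 unstimulated library of each kind of mouse, 0 were higher and 3 lower in control mice and 0 higher and 4 lower in succinate mice, Apoe, Abcg1 and Soat1 among the lower ones in both. In that set edgeR gave an unadjusted p below 0.05 to 7 and 11 members.

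**Figure D1:**
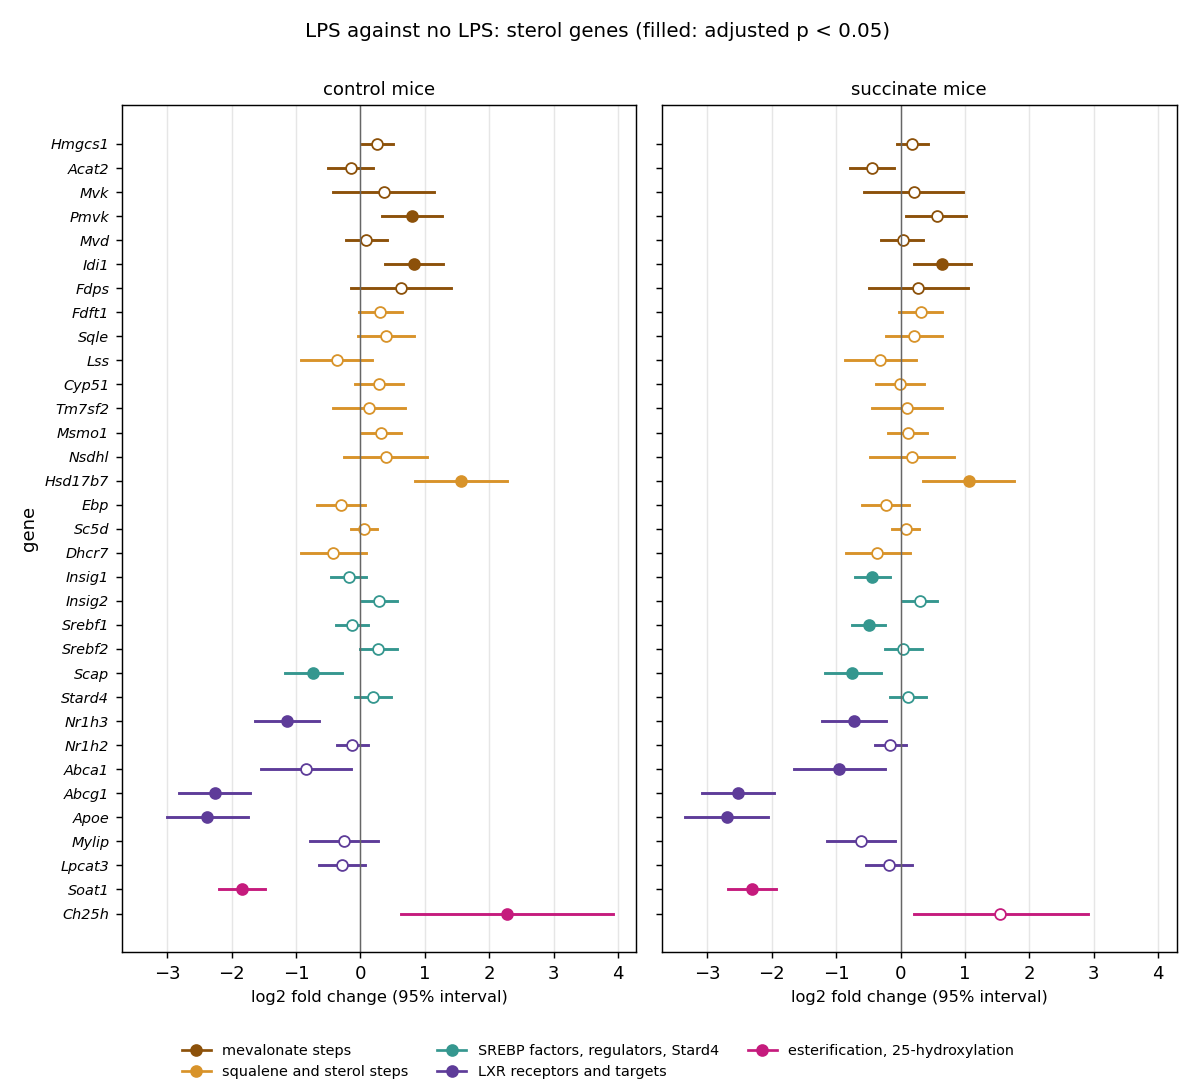
Log2 fold change with 95% interval (x axis) of LPS against no LPS for each of the 33 genes (y axis, coloured by role), in cells of control mice on the left and of succinate mice on the right; filled points have an adjusted p below 0.05. Apoe, Abcg1 and Soat1 lie farthest to the left in both panels, from -2.70 to -1.84, and Hsd17b7 is the synthesis enzyme farthest to the right, at 1.56 and 1.06.

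In the LXR group Nr1h3, Abcg1 and Apoe fell in both kinds of mice. All 7 of its members had a negative log2 fold change with LPS in both kinds of mice, with medians of -0.84 in control and -0.72 in succinate mice. Of the 7, 3 (42.9%) and 4 (57.1%) were called lower, beside 14.8% and 16.2% of all genes. The members were chosen with earlier results of these data known, so these shares do not test the group against other genes. Their summed level went from 1960 ± 269 to 588 ± 29.2 CPM in control mice and from 1430 ± 394 to 422 ± 74.7 CPM in succinate mice (SD, n = 3). Without LPS, Apoe alone averaged 1480 CPM of the first of these sums and 995 CPM of the third.

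Apoe encodes the lipid-carrying apolipoprotein that macrophages secrete with cholesterol, and lies at chr7:19696109-19699188 on the minus strand (GRCm38). It was at 1370, 1320 and 1740 CPM in the control libraries without LPS and at 328, 303 and 220 CPM with LPS. In succinate mice it was at 1160, 569 and 1260 CPM without LPS and at 96.8, 204 and 158 CPM with LPS. Every LPS library was below every library without LPS, and library 2 of the succinate mice without LPS was the lowest unstimulated one. The log2 fold change was -2.38 ± 0.30 (SE, adjusted p = 1.88e-05, a 5.2-fold lower level) in control mice and -2.70 ± 0.30 (adjusted p = 6.58e-06, 6.5-fold lower) in succinate mice.

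Abcg1 encodes a transporter that passes cholesterol to high-density lipoprotein. It was at 93.3, 160 and 134 CPM in control cells without LPS and at 21, 21 and 38.6 CPM with LPS. The succinate libraries were at 103, 100 and 137 CPM without LPS and at 15.2, 19.5 and 24.5 CPM with LPS. The groups did not overlap in either kind of mouse. Its log2 fold change was -2.26 ± 0.26 in control mice (adjusted p = 8.17e-06, 4.8-fold lower) and -2.52 ± 0.26 in succinate mice (adjusted p = 3.34e-06, 5.75-fold lower).

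Abca1 encodes the transporter that loads cholesterol and phospholipid onto apolipoprotein A-I. Its levels were 36.8, 73.4 and 74.6 CPM in control cells without LPS and 21, 24.7 and 57.2 CPM with LPS, so that the groups overlapped. In succinate mice they were 68.6, 56.5 and 54.4 CPM without LPS and 24.8, 39.4 and 28.6 CPM with LPS, with no overlap. This was a log2 fold change of -0.84 ± 0.33 in control mice (adjusted p = 0.0693) and -0.95 ± 0.33 in succinate mice (adjusted p = 0.0409). In control mice the value was -1.40 (adjusted p = 0.00172) without library 3 with LPS and -1.11 (adjusted p = 0.0193) without library 1 without LPS. The call in succinate mice was lost without any 1 of 7 single libraries, with values from -1.02 to -0.82, by DESeq2 at -0.94 (adjusted p = 0.0845) and with the library set as a covariate at -0.58 (adjusted p = 0.174). The control comparison was called by limma-voom (adjusted p = 0.0466), without the filter and with library size alone.

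Nr1h3 encodes LXR-alpha, the inducible receptor of the pair. It was at 17.6, 25.7 and 27.5 CPM in control cells without LPS and at 11.5, 9.93 and 10.6 CPM with LPS, a log2 fold change of -1.14 ± 0.23 (adjusted p = 0.00163). Succinate mice had it at 17.6, 13.5 and 19.7 CPM without LPS and at 6.8, 10.4 and 13.6 CPM with LPS, a log2 fold change of -0.72 ± 0.23 (adjusted p = 0.0292). The groups were apart in control mice and touched in succinate mice, where library 3 with LPS was just above library 2 without. In succinate mice the call was lost without library 1 or 3 without LPS or library 1 or 2 with LPS, at -0.73 to -0.50, with only the 2 groups fitted, at -0.71, and with the library set as a covariate, at -0.62. Within the lower set neither call held, at -0.69 in control and -0.76 in succinate mice. Nr1h2, the gene of the other receptor LXR-beta, was at -0.13 ± 0.11 (adjusted p = 0.416) and -0.16 ± 0.11 (adjusted p = 0.307). Mylip, whose product limits uptake of low-density lipoprotein, and the phospholipid-remodelling gene Lpcat3 were not called, at -0.26 and -0.29 in control and -0.61 and -0.18 in succinate mice.

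Of the 2 storage and hydroxylation genes, Soat1 fell and Ch25h rose in control mice. Soat1, the enzyme that esterifies cholesterol for lipid droplets, lies at chr1:156424525-156474331 on the minus strand. It was at 837, 776 and 834 CPM in control cells without LPS and at 301, 207 and 177 CPM with LPS. Its levels in succinate mice were 748, 674 and 826 CPM without LPS and 133, 153 and 168 CPM with LPS. The LPS libraries lay far below the others, with the widest scatter in control mice, where library 1 was the highest. The log2 fold change was -1.84 ± 0.17 in control mice (adjusted p = 9.04e-07, 3.57-fold lower) and -2.31 ± 0.17 in succinate mice (adjusted p = 1.23e-07, 4.96-fold lower). Apoe, Abcg1 and Soat1 kept their calls in each of the 22 alternatives run for each LPS comparison.

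Ch25h makes an oxysterol that restrains SREBP processing and viral entry. It was scarce, with 142 counts over all libraries. The counts were 3, 3 and 2 in control cells without LPS and 14, 16 and 8 with LPS. In succinate mice they were 5, 17 and 1 without LPS and 27, 32 and 14 with LPS. Counts were higher with LPS in each control library, and library 2 of the succinate mice without LPS overlapped the LPS range. This was a log2 fold change of 2.27 ± 0.77 in control mice (adjusted p = 0.0364) and 1.55 ± 0.63 in succinate mice (adjusted p = 0.0801). The control call was lost without any 1 of 5 single control libraries, at 2.07 to 2.39, by limma-voom at 2.09 and with the library set as a covariate at 2.22. The succinate comparison was called by limma-voom at 2.07 (adjusted p = 0.0299) and without the filter at 1.59 (adjusted p = 0.0354), and without library 2 of the succinate mice without LPS the succinate value was 2.87 (adjusted p = 0.00702). Its exons overlap Gm26902 on the opposite strand over 11.5% of their bases, so some counts may belong there.

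**Figure D2:**
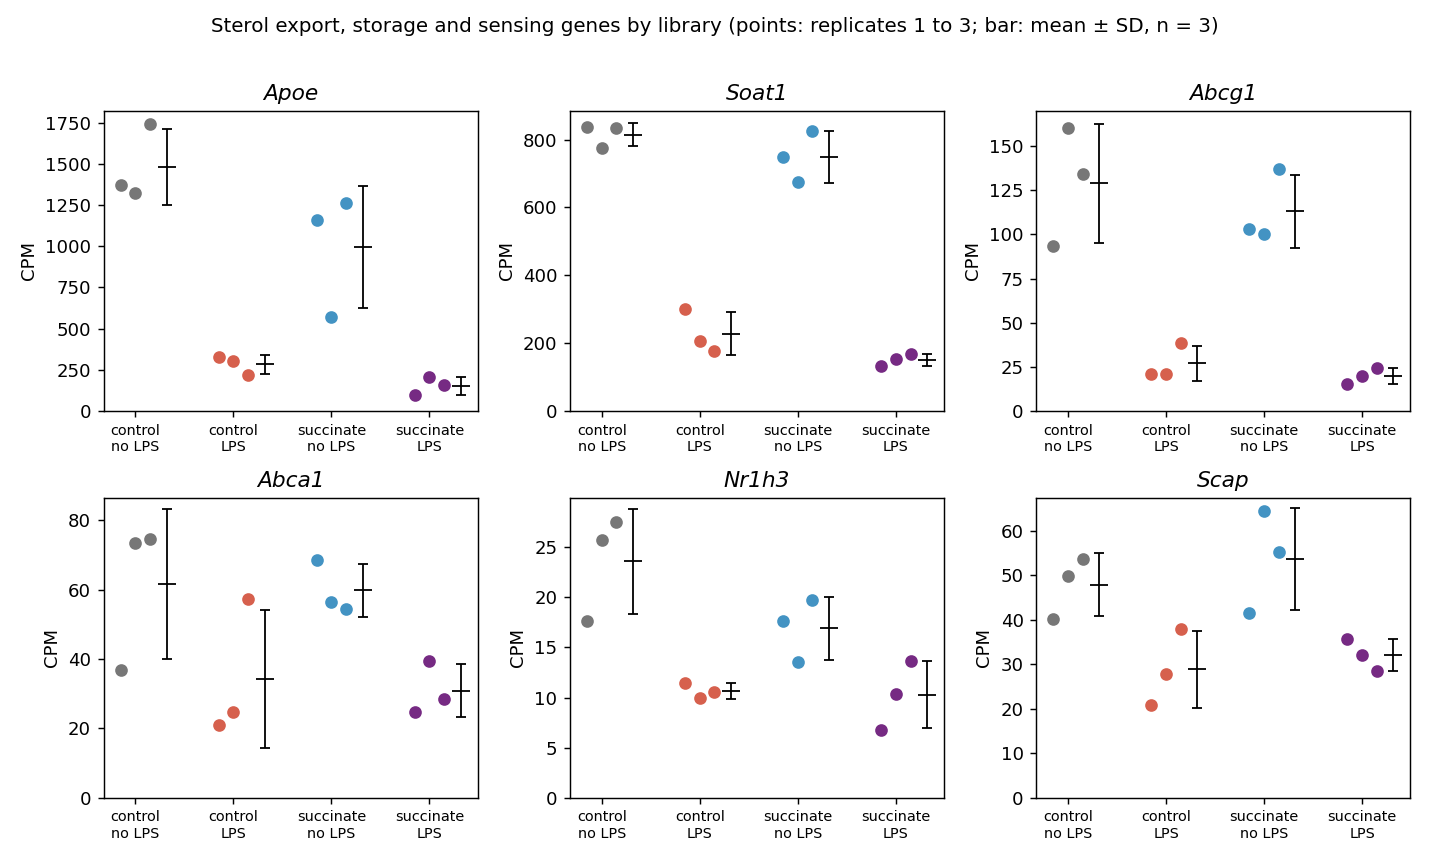
CPM (y axis, from 0) of Apoe, Soat1, Abcg1, Abca1, Nr1h3 and Scap in each of the 12 libraries, grouped by mouse and LPS (x axis); points are replicates 1 to 3 from left to right and the bar is the mean ± SD of 3. Apoe, Soat1 and Abcg1 show no overlap between libraries with and without LPS, whereas Abca1 in control mice has 1 LPS library at 57.2 CPM, above the unstimulated library at 36.8 CPM.

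Among the 6 genes of the SREBP factors, their regulators and Stard4, Scap fell in both kinds of mice. Scap encodes the escort protein of SREBP. It was at 40.1, 49.9 and 53.7 CPM in control cells without LPS and at 20.8, 27.9 and 38 CPM with LPS, and at 41.5, 64.5 and 55.2 CPM without and 35.6, 32.1 and 28.4 CPM with LPS in succinate mice. No LPS library reached the unstimulated libraries of its own kind of mouse. The log2 fold change was -0.73 ± 0.20 in control mice (adjusted p = 0.0135) and -0.75 ± 0.20 in succinate mice (adjusted p = 0.0115). The control call was lost without library 2 or 3 without LPS or library 1 or 2 with LPS, at -0.68 to -0.51, and the succinate call without library 2 without LPS, at -0.60. Both calls were lost within the lower library set, at -0.70 in control and -0.35 in succinate mice, and the succinate call also with the set as a covariate, at -0.39 (adjusted p = 0.0744).

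Srebf1 and Insig1 fell with LPS in succinate mice. Srebf1, which encodes the SREBP1 factors of lipid synthesis, was at 95.1, 114 and 108 CPM without and 101, 84.3 and 105 CPM with LPS in control mice. Libraries of succinate mice lay at 109, 133 and 110 CPM without and 80.3, 82.3 and 87.5 CPM with LPS. This was a log2 fold change of -0.13 ± 0.12 in control mice (adjusted p = 0.457), where the groups overlapped, and -0.49 ± 0.12 in succinate mice (adjusted p = 0.00516), where they did not. Insig1, which retains Scap in the endoplasmic reticulum, was at 106, 124 and 121 CPM without and 111, 89.3 and 108 CPM with LPS in control mice. In succinate mice it was at 110, 119 and 126 CPM without and 77.4, 82.9 and 101 CPM with LPS. The log2 fold change was -0.18 ± 0.13 in control mice (adjusted p = 0.306) and -0.44 ± 0.13 in succinate mice (adjusted p = 0.0157), with no overlap in the latter. That call was lost without succinate library 3 without LPS or library 1 or 2 with LPS, at -0.40 to -0.36, and with the library set as a covariate, at -0.33. Within the lower set neither Insig1, at -0.30, nor Srebf1, at -0.36, was called in succinate mice. These differences between the kinds of mice did not pass the test of the difference itself, which is given with the succinate comparisons.

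Srebf2, the gene of the factor that most directly drives cholesterol synthesis, was at 284, 355 and 337 CPM without and 371, 355 and 458 CPM with LPS in control mice. The succinate libraries were at 268, 359 and 332 CPM without and 306, 326 and 356 CPM with LPS. Its log2 fold changes were 0.28 ± 0.14 (adjusted p = 0.144) and 0.04 ± 0.14 (adjusted p = 0.851). Insig2, the second Insig gene, was at 0.29 ± 0.13 (adjusted p = 0.0986) and 0.30 ± 0.13 (adjusted p = 0.0877). Stard4, a carrier of cholesterol between membranes, was at 0.20 ± 0.13 and 0.11 ± 0.13. None of these last 3 was called.

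Of the 18 synthesis enzymes 3 rose and none fell with LPS in control mice, and 2 rose and none fell in succinate mice. These shares, 16.7% and 11.1%, were close to the 15.3% and 14.1% of all genes called higher. The median log2 fold change of the 18 was 0.30 in control and 0.14 in succinate mice, with 14 of 18 and 13 of 18 above 0. By role, 2 of 7 mevalonate enzymes and 1 of 11 squalene and sterol enzymes rose in control mice, and 1 of 7 and 1 of 11 in succinate mice. Their summed level was 590 ± 10.7 CPM without and 707 ± 65.8 CPM with LPS in control mice, and 563 ± 56.8 CPM without and 615 ± 121 CPM with LPS in succinate mice (SD, n = 3).

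Hsd17b7 reduces the sterol ring ketone left after demethylation. It was at 5.5, 5.59 and 3.62 CPM in control cells without LPS and at 15.6, 10.9 and 17.1 CPM with LPS, and its log2 fold change was 1.56 ± 0.34 (adjusted p = 0.00237, 2.96-fold higher). Succinate mice had it at 4.64, 6.77 and 6.83 CPM without and 7.01, 10.5 and 20.5 CPM with LPS, a log2 fold change of 1.06 ± 0.33 (adjusted p = 0.0245). The groups did not overlap, but in succinate mice library 1 with LPS was barely above the unstimulated libraries and library 3 far above them. Without library 3 with LPS the succinate value was 0.52 (adjusted p = 0.189), and without library 1 without LPS it was 0.90 (adjusted p = 0.0876). It was not called by limma-voom, at 0.93 (adjusted p = 0.0581), and within the lower library set Hsd17b7 was at 1.29 in control and 1.47 in succinate mice, not called in either.

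Idi1 interconverts the isopentenyl units of the pathway. It was at 21.6, 20 and 20.6 CPM in control cells without LPS and at 43.4, 31 and 36.2 CPM with LPS, a log2 fold change of 0.83 ± 0.21 (adjusted p = 0.00698). Its levels in succinate mice were 19.1, 18 and 25 CPM without and 24.5, 27.1 and 45.3 CPM with LPS, a log2 fold change of 0.64 ± 0.21 (adjusted p = 0.0302). The control groups were well apart and the succinate groups overlapped. The succinate value was 0.32 (adjusted p = 0.202) without library 3 with LPS, 0.59 (adjusted p = 0.0851) without library 1 without LPS and 0.55 (adjusted p = 0.113) without library 2 without LPS. The succinate call was also lost with the library set as a covariate, at 0.65, and with only the 2 groups fitted, at 0.66. Within the lower library set the call held in neither kind of mouse.

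Pmvk, the second kinase of the mevalonate pathway, was at 10.2, 7.21 and 6.8 CPM in control cells without LPS and at 14.5, 13.6 and 14 CPM with LPS. Libraries of succinate mice lay at 6.99, 7.18 and 9.62 CPM without and 9.83, 9.75 and 15.4 CPM with LPS. In both kinds of mice the LPS libraries were all higher than the others. This was a log2 fold change of 0.80 ± 0.22 in control mice (adjusted p = 0.0117) and 0.56 ± 0.22 in succinate mice (adjusted p = 0.0665). Without control library 3 without LPS the control value was 0.71 (adjusted p = 0.0511), and without succinate library 3 without LPS the succinate value was 0.72 (adjusted p = 0.0367). DESeq2 called Pmvk in succinate mice (adjusted p = 0.0376), as did edgeR without the filter, and within the lower library set the control value was 0.48, not called.

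Hmgcs1, the HMG-CoA synthase gene whose window above holds the letters of a sterol regulatory element, was at 98.8, 106 and 119 CPM in control cells without LPS and at 135, 118 and 134 CPM with LPS. In succinate mice it was at 92.1, 106 and 101 CPM without and 104, 110 and 125 CPM with LPS. The LPS range lay higher but overlapped the unstimulated range in both, and the log2 fold changes of 0.26 ± 0.11 (adjusted p = 0.097) and 0.18 ± 0.11 (adjusted p = 0.258) were not called. Sqle, the squalene epoxidase gene, was at 41.3, 53 and 42 CPM without and 66.3, 46.3 and 67.1 CPM with LPS in control mice. The succinate libraries were at 34.2, 35.7 and 45.2 CPM without and 34.9, 38 and 60.3 CPM with LPS. Its log2 fold changes were 0.40 ± 0.20 (adjusted p = 0.163) and 0.21 ± 0.20 (adjusted p = 0.483), and 1 library in each LPS group set it apart from its neighbours, library 2 low in control mice and library 3 high in succinate mice. The remaining 13 enzymes were not called, and their log2 fold changes lay between -0.43 (Dhcr7) and 0.63 (Fdps) in control mice and between -0.44 (Acat2) and 0.31 (Fdft1) in succinate mice.

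Within 3 of the 4 groups 1 library stood out from the others for most synthesis enzymes. In succinate mice with LPS, library 3 was the highest of its group for 16 of 18 enzymes (88.9%) and for 44.7% of all genes tested, with a median deviation from the group mean of 0.39 on the log2 scale. In succinate mice without LPS, library 3 was the highest for 15 of 18 (83.3%) and for 37.2% of all genes, with a median deviation of 0.24. In control mice with LPS, library 2 was the lowest for 13 of 18 enzymes and for 30.7% of all genes, with a median deviation of -0.21. In control mice without LPS each library was the highest for 6 of 18. The summed level of the 18 enzymes was 580, 601 and 590 CPM in control mice without LPS and 755, 632 and 735 CPM with LPS. In succinate mice it was 517, 544 and 626 CPM without LPS and 534, 556 and 754 CPM with LPS, so that library 3 with LPS reached the control LPS level and the other 2 did not. That library also had the most counts, 18306747. Library 1 of its group, the lowest for 10 of 18 enzymes and for 40.9% of all genes, had 18139935. In succinate mice with LPS, library 3 was the highest for 10 of 12 Ly6C-high monocyte markers, beside 44.7% of all genes. Library 1 was the lowest for all 12, beside 40.9%. It was also the lowest for 9 of 12 neutrophil, 8 of 10 Ly6C-low monocyte, 5 of 6 progenitor, 5 of 7 B cell and 4 of 7 dendritic cell markers. Of the Ly6C-high markers, succinate library 3 without LPS was the highest for 8 of 12, beside 37.2% of all genes. Control library 2 with LPS was the lowest for 9 of 12, beside 30.7%. Whether depth or these markers play a part was not tested. Among the members, the spread left after the group means was smallest for the sterol desaturase gene Sc5d at 0.07 on the log2 scale and Hmgcs1 at 0.12, and largest for Ch25h at 0.77, Mvk and Abca1 at 0.52 and Hsd17b7 at 0.48.

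**Figure D3:**
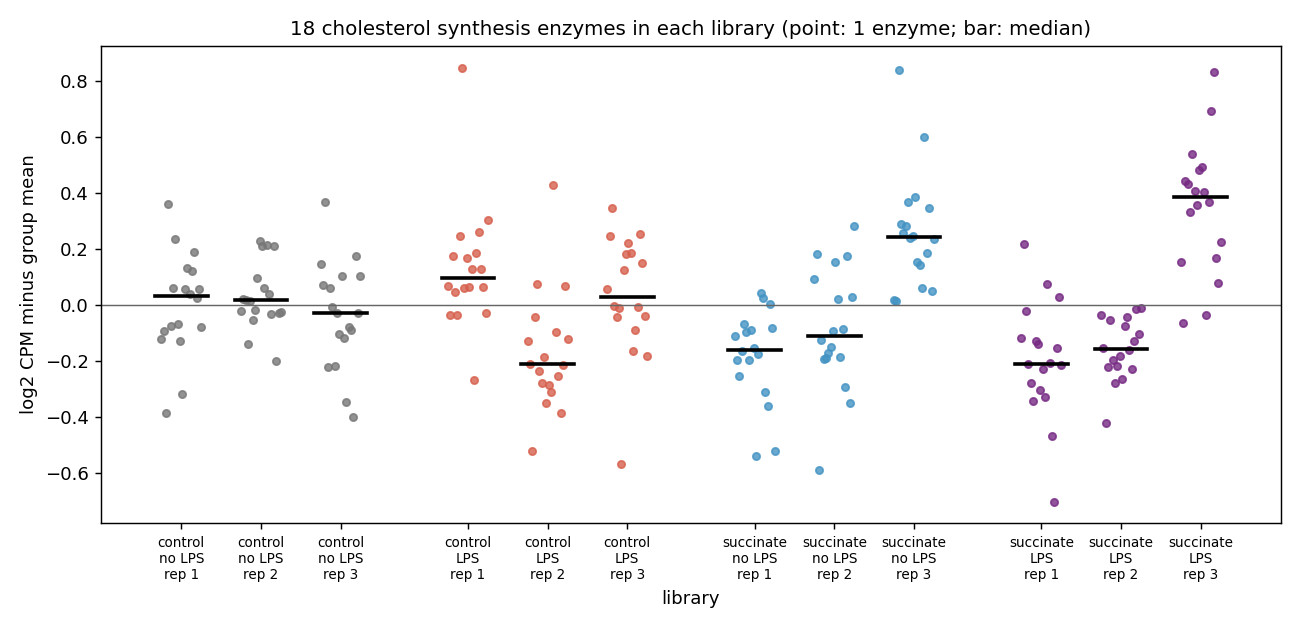
Deviation of log2 CPM from the mean of its own group (y axis) for each of the 18 synthesis enzymes in each of the 12 libraries (x axis); each point is 1 enzyme and the bar is the median. The medians of the succinate libraries numbered 3 are 0.24 without and 0.39 with LPS, and those of the control libraries without LPS are between -0.03 and 0.03.

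Genes next to these pathways moved with LPS as well. In a list of lysosomal release, intracellular transport and lipoprotein receptors 10 of 19 genes fell and 2 rose in control mice, and 11 fell and 3 rose in succinate mice, with median log2 fold changes of -0.56 and -0.46. In all 63.2% and 73.7% of these genes were called, beside 30.1% and 30.2% of all genes tested. This list and the other neighbouring lists were chosen with earlier results of these data known. Their shares therefore describe the lists and do not test them against other genes. Nceh1, a hydrolase of cholesteryl esters, went from 694 ± 21 to 98.4 ± 9.16 CPM in control mice, a log2 fold change of -2.82 ± 0.15 (adjusted p = 4.83e-09), and had one of -3.34 ± 0.16 in succinate mice. Scarb2, a lysosomal membrane protein that takes part in cholesterol export from lysosomes, fell, with log2 fold changes of -1.44 ± 0.12 in control and -1.35 ± 0.12 in succinate mice. Cyp27a1, which makes an oxysterol ligand of LXR, fell, with log2 fold changes of -1.78 ± 0.22 in control and -2.63 ± 0.23 in succinate mice. Gramd1b, which moves cholesterol from the plasma membrane to the endoplasmic reticulum, rose, with log2 fold changes of 1.79 ± 0.16 and 1.14 ± 0.15.

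Of 11 tested genes among other LXR targets, partners and co-factors, 5 fell and 1 rose in control mice, and 6 fell and none rose in succinate mice, with medians of -0.67 and -0.62. The share called was 54.5% in each, beside 30.1% and 30.2% of all genes, with the limit on chosen lists given above. Rxra, the nuclear receptor that pairs with LXR, went from 72 ± 8.66 to 21.1 ± 6.3 CPM in control mice (log2 fold change -1.77 ± 0.17) and from 76.2 ± 4.77 to 16.7 ± 1.44 CPM in succinate mice (log2 fold change -2.19 ± 0.17). The LXR target genes Smpdl3a and Arl4c fell, with log2 fold changes of -0.97 ± 0.14 and -0.88 ± 0.17 in control mice and -0.97 ± 0.14 and -1.45 ± 0.17 in succinate mice. Of 12 genes of SREBP cleavage and sterol-regulated degradation 2 rose and 2 fell in control mice, and 1 rose and 3 fell in succinate mice, with medians of 0.01 and -0.16. The share called, 33.3% in each, was close to that of all genes. Rnf145, a sterol-responsive ubiquitin ligase, rose, with log2 fold changes of 1.36 ± 0.09 and 1.39 ± 0.09 (adjusted p = 5.32e-08 in each). Fbxw7, which marks nuclear SREBP for degradation, fell, with log2 fold changes of -0.84 ± 0.14 in control and -1.02 ± 0.14 in succinate mice, and Mbtps1, the gene of the site-1 protease that cuts SREBP, fell, with log2 fold changes of -0.47 ± 0.09 in control and -0.33 ± 0.09 in succinate mice.

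Of 13 tested genes of fatty acid synthesis 2 rose and 2 fell in control mice, and 1 rose and 3 fell in succinate mice, with medians of -0.24 and -0.21, and the share called, 30.8% in each, was close to that of all genes. Fasn, the fatty acid synthase gene, went from 173 ± 32.7 to 80.4 ± 21.1 CPM in control mice (log2 fold change -1.11 ± 0.23) and from 188 ± 56.1 to 80 ± 13.2 CPM in succinate mice (log2 fold change -1.23 ± 0.23). The elongase gene Elovl5 fell, with log2 fold changes of -0.77 ± 0.14 in control and -0.57 ± 0.14 in succinate mice. Acss2, which makes acetyl-CoA from acetate, rose in control mice, with a log2 fold change of 1.24 ± 0.28, and was at 0.55 ± 0.28 (adjusted p = 0.152) in succinate mice. In the isoprenoid branch Icmt, which methylates prenylated proteins, fell, with log2 fold changes of -0.33 ± 0.11 in control and -0.40 ± 0.11 in succinate mice. The medians over the 14 genes of that branch were 0.07 and 0.03.

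Succinate given to the mice called no member by edgeR in cells cultured without LPS, where 0 of all genes (0%) were called, and no member had an unadjusted p below 0.05, beside 3.73% of all genes. DESeq2 and limma-voom also called 0 members, at unadjusted p below 0.05 for 2 members each. By edgeR that count was 0 to 2 without single libraries other than succinate library 3 without LPS, and 4 without that one. The median log2 fold change of the 33 genes was -0.03, and that of the 18 synthesis enzymes was -0.01, against 0.006 over all genes. Apoe averaged 1480 ± 232 CPM in control and 995 ± 372 CPM in succinate mice (SD, n = 3), with no overlap between the groups. Such a gap was found for 2 members, beside 7.92% of all genes, with 1 lower (4.27%) and 1 higher (3.65%). Its log2 fold change was -0.57 ± 0.28 (95% interval -1.17 to 0.03, adjusted p = 0.958), and -0.29 without succinate library 2. Fitted without any filter on low genes, it was called, at adjusted p = 0.0114. Acat2, the cytosolic acetoacetyl-CoA thiolase gene, was the other member whose groups did not overlap, higher with succinate, at 0.33 ± 0.16 (95% interval -0.02 to 0.67). The summed Ly6C-high monocyte markers also did not overlap, at 10400 to 10900 CPM in control mice and 10000, 7080 and 9190 CPM in succinate mice, lowest in library 2, where Apoe was lowest. The B cell markers summed to 126 to 153 CPM in control and 170 to 230 CPM in succinate mice, with 5 of 7 at an unadjusted p below 0.05. The part of these markers in the Apoe value was not tested. Soat1 averaged 815 ± 34.5 and 749 ± 75.8 CPM, at -0.12 ± 0.16 (95% interval -0.47 to 0.23).

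With LPS, succinate against control called 0 of 33 members by edgeR and 9 of all genes (0.0628%), all 9 lower. Unadjusted p was below 0.05 for 3 members, beside 11.7% of all genes. DESeq2 called 2 members lower, Apoe and Soat1, and limma-voom called 0, with unadjusted p below 0.05 for 4 members by DESeq2 and 5 by limma-voom. By edgeR this count was 14 without succinate library 3 with LPS, the library high for the synthesis enzymes, 10 without control library 2 with LPS, the one low for them, and 2 to 4 without any other single library. None of these edgeR fits called a member. Without succinate library 3 with LPS 16 of all genes were called higher and 181 lower, and without any other single library 0 to 6 higher and 0 to 73 lower. The median log2 fold change was -0.19 over the 33 genes and -0.19 over the 18 synthesis enzymes, against -0.014 over all genes, and 24 of 33 members and 12 of 18 enzymes lay below the median of all genes. Scaled by library size alone, the median of all genes moved to 0.107 and that of the 33 to -0.07, and 24 of 33 and 12 of 18 again lay below the former, while 18 of 33 instead of 25 of 33 were below 0.

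The 3 members with an unadjusted p below 0.05 were Apoe, Soat1 and Mylip, named here because of that count. Apoe averaged 284 ± 57.1 CPM in control and 153 ± 53.9 CPM in succinate mice with LPS, a log2 fold change of -0.89 ± 0.29 (95% interval -1.50 to -0.28, unadjusted p = 0.00724, adjusted p = 0.219). Soat1 averaged 228 ± 64.6 and 151 ± 17.7 CPM, at -0.59 ± 0.16 (95% interval -0.95 to -0.24, adjusted p = 0.145). For both, all libraries of succinate mice were below all libraries of control mice. These were the 2 members without overlap, beside 17.1% of all genes, 10.2% lower and 6.95% higher. DESeq2 gave adjusted p = 0.04 for Apoe and 0.0218 for Soat1. Over the alternatives the adjusted p ranged from 1.34e-07 to 0.71 for Apoe and from 0.002 to 0.59 for Soat1. Leaving out single libraries put Apoe between -1.15 and -0.65, and Soat1 was at -0.35 (adjusted p = 0.59) without control library 1 with LPS.

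Mylip was at 82.1, 54.7 and 35.8 CPM in control and 32.4, 46.4 and 30 CPM in succinate mice with LPS, with overlap, and its log2 fold change was -0.67 ± 0.25 (adjusted p = 0.299). Without control library 1 with LPS it was -0.33. Not called either, Sqle was at -0.43 ± 0.20 (95% interval -0.87 to 0.00, adjusted p = 0.428), and the log2 fold changes of the other synthesis enzymes lay above that, up to 0.30 for Dhcr7. Hmgcs1 was at -0.20 ± 0.11 and Srebf2 at -0.26 ± 0.14 (95% interval -0.55 to 0.03). In succinate mice with LPS the summed Ly6C-high monocyte markers were 6040 to 8570 CPM, beside 8650 to 9580 CPM in control mice with LPS, and the macrophage markers 833 to 1040 CPM beside 1010 to 1100 CPM. B cell markers were 127 to 149 CPM beside 74.1 to 132 CPM, with 7 of 7 higher and 4 at an unadjusted p below 0.05. T and NK cell markers were 33.2 to 44.5 CPM beside 19.1 to 31.6 CPM. Of these 8 T and NK markers 6 were below 1 CPM in every library and only 2 were tested, so the sum rests mostly on 2 genes. Mitochondrial transcripts took 1.22% to 1.26% of counts beside 0.984% to 1.07%, and ribosomal protein transcripts 3.86% to 4.05% beside 3.18% to 3.28%, with no overlap. The part of all these in the values above was not tested.

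**Figure D4:**
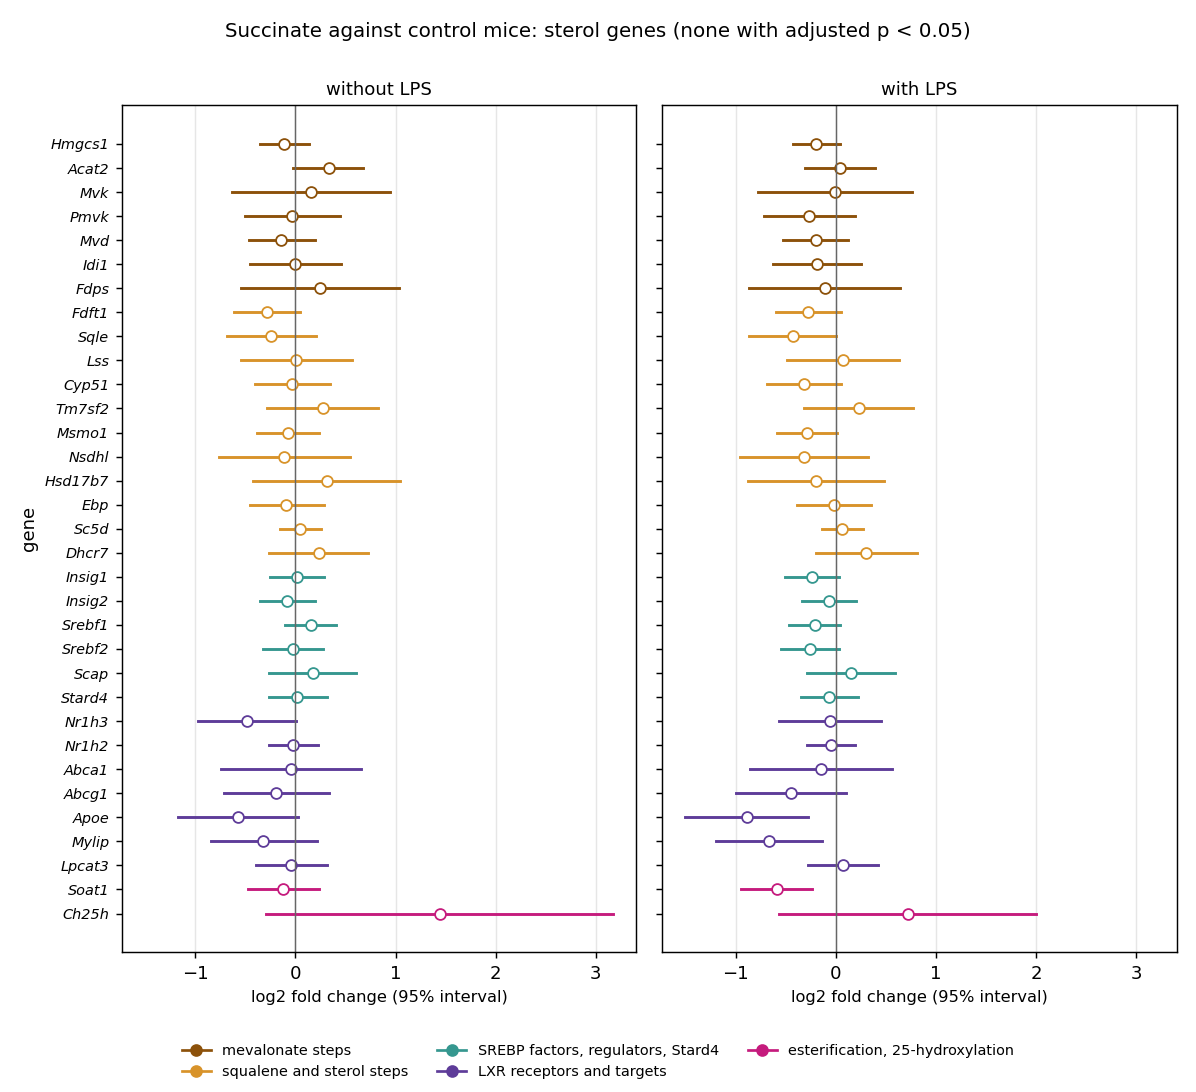
Log2 fold change with 95% interval (x axis) of succinate against control mice for each of the 33 genes (y axis, coloured by role), without LPS on the left and with LPS on the right; open points have an adjusted p of 0.05 or more. With LPS the intervals of Apoe, Soat1 and Mylip lie below 0, at -0.89, -0.59 and -0.67, and those of the other 30 genes reach 0.

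The difference between the 2 LPS effects (succinate minus control mice) called 0 members by edgeR and 0 genes over all (0%), and DESeq2 and limma-voom called 0 members too. It had an unadjusted p below 0.05 for 1 member, Srebf1, beside 3.91% of all genes, and by DESeq2 and limma-voom for 0. Without succinate library 3 with LPS that count was 7 by edgeR, and 0 or 1 without any other single library. For Srebf1 it was -0.36 ± 0.17 (unadjusted p = 0.0468, adjusted p = 1). For Soat1 it was -0.47 ± 0.23 and for Insig1 -0.25 ± 0.18. The median over the 33 genes was -0.19, against -0.026 over all genes, with a median standard error of 0.29. The calls of Srebf1, Insig1 and Abca1 in succinate mice and of Pmvk and Ch25h in control mice are therefore not shown to differ between the kinds of mice.

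The median standard error of a member was 0.20 on the log2 scale in the comparisons of 2 groups. None of the genes of the 5 neighbouring lists was called for succinate or for the difference between the LPS effects. For succinate with LPS, 9 of 19 genes of the transport list had an unadjusted p below 0.05, beside 11.7% of all genes. For 8 the groups did not overlap, 6 lower and 2 higher, beside 10.2% and 6.95% of all genes. As that list was chosen with earlier results of these data known, these counts do not test it against other genes. Among them, Nceh1 was at -0.76 ± 0.14 (adjusted p = 0.0547), Gramd1b at -0.66 ± 0.15 (adjusted p = 0.0794) and Cyp27a1 at -0.89 ± 0.23 (adjusted p = 0.122).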

How the data were processed

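Per the labels, RNA was taken with Trizol from sorted, cultured mouse monocytes and sequenced by a company. The authors deposited whole-number counts per gene for each library, not normalised, made with Trim Galore and mm10, per the submitters' processing notes. The aligner, counter, annotation and strand setting: not given in the sources used here.

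The 12 libraries were grouped by title, and the 33 members were found by symbol. The members and lists were chosen with earlier results of these data known. Counts were tested with edgeR 4.0.16 (R 4.3.3): filterByExpr (14324 genes kept), TMM scaling, 1 mean per group over all libraries, quasi-likelihood tests and Benjamini-Hochberg adjustment over all genes tested, with 0.05 as the threshold. Intervals are 95% and errors of fold changes are standard errors. CPM uses TMM-scaled library sizes, and log2 CPM a prior count of 2. The 5 contrasts were LPS in each kind of mouse, succinate without and with LPS, and the difference between the LPS effects. The script was tested on simulated data. Depth was 15975882 to 18306747 counts, and the median standard error over all genes tested was about 0.19.

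Per-library values are given for members called in any contrast and reaching a mean of 10 CPM in 1 group, and for Ch25h, Abca1, Insig1, Srebf1, Srebf2, Apoe, Hmgcs1 and Sqle. From each neighbouring list up to 3 called genes per LPS contrast with the smallest p and at least 10 CPM are named. A gene that this rule selects from 1 list is left out of the text. Members named beyond this were chosen after their values were seen. Replicate numbers were checked as pairs by correlating deviations from group means. Only the succinate comparison without LPS had every pair above 0.1 (0.12 to 0.26), and there each of 6 libraries correlated best with its own number. A replicate block is an alternative, as are other filters, scalings, DESeq2 1.42.0, limma-voom (limma 3.58.1), a fit of only the 2 groups, the library set and leaving out each library.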

Additional observations from a re-analysis of the deposited data

How the results depend on the processing

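None of the 28 log2 fold changes of members followed through the alternatives changed sign, and 8 of them kept their side of the threshold in every alternative. Where the number of members called moved, the cause was not tested. LPS in control mice called 4 higher and 5 lower, against 0 and 3 within the lower library set, and 2 to 5 higher and 4 to 6 lower when single libraries were left out. LPS in succinate mice called 2 higher and 8 lower. It called 4 higher without the filter, 1 higher with the library set as a covariate, 0 higher within the lower set and 1 higher with only the 2 groups fitted. Lower calls were 5 with the covariate and 4 within the lower set. Leaving out single libraries gave 0 to 3 higher (0 without succinate library 1 without LPS or library 3 with LPS) and 5 to 9 lower (5 without succinate library 3 without LPS).

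Succinate without LPS called 0 lower, against 1 (Apoe) without the filter. Succinate with LPS called 0 lower, against 3 (Apoe, Soat1 and Mylip) without the filter and 2 by DESeq2, which gave no adjusted p for 3 members. Over all genes that comparison called 9 by edgeR, 121 higher and 573 lower without the filter, and 23 higher and 323 lower by DESeq2. With the library set as a covariate it called 19 higher and 171 lower, and with the replicate block 5 higher and 72 lower. Neither of these 2 fits called a member in it. With the replicate block, which pairs libraries by number, LPS called 4 higher and 6 lower members in control mice and 3 higher and 8 lower in succinate mice, and 0 in the other 3 contrasts. In that fit Abca1 in control mice was at -0.86 (adjusted p = 0.0374) and Ch25h in succinate mice at 1.72 (adjusted p = 0.0191). Same-number correlations were -0.13 to 0.21 and 0.01 to 0.38 for the LPS contrasts and -0.03 to 0.09 for succinate with LPS. In these contrasts 3, 2 and 2 of 6 libraries correlated best with their own number. The value of 0.38 was that of the succinate libraries numbered 3. The labels do not say whether libraries of the same number are from the same animal, and these correlations cannot decide it. The lower set leaves 1 unstimulated library per kind of mouse, which is assumed to vary like the other groups. Depth limits Ch25h most, with 142 counts in all.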
